A study of Mus musculus with 4 samples.

Results

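The cell cycle genes followed here are 44 genes of 32285 in the count tables, 22 that serve DNA replication and 22 that serve mitosis, and the question was which lymphocyte lineage carried more of their RNA after extracellular vesicles. All mice were C57BL/6 of wild-type genotype. The EV group received 100 µg of extracellular vesicles (EVs, membrane particles that cells release) made by induced pluripotent stem cells, injected under the skin, and cells of the draining lymph nodes were sequenced singly with the 10x 3′ v3.1 chemistry. There were 2 control and 2 EV libraries, described as biological replicates. The study's text gives the controls a PBS injection and places the harvest at 5 days, whereas the sample labels call the controls untreated and give a treatment duration of 24 h. All cells with at least 200 genes and under 10% mitochondrial UMIs (unique molecular identifiers, each standing for 1 captured RNA molecule) were kept, with no upper limit, and 5 gates were set from marker UMIs. The B gate held cells with Cd79a, no Cd3e and fewer than 5 Jchain UMIs, and the Jchain-high gate held cells with at least 5 Jchain UMIs and no Cd3e. The CD4 T gate required Cd3e and Cd4 without Cd8a or Cd79a, the CD8 T gate required Cd3e and Cd8a without Cd4 or Cd79a, and the Treg (regulatory T cell) gate required Foxp3 and Cd3e.

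A dividing lymphocyte first copies its DNA and then segregates it. Cyclin E (Ccne1, Ccne2) and the transcription factor E2f1 open S phase, Cdc6 and Cdt1 load the MCM helicase (Mcm2 to Mcm7) on origins, Gins2 helps to activate it, and the sliding clamp Pcna, its partner Pclaf, the flap nuclease Fen1 and the ligase Lig1 work at the fork. Rrm1, Rrm2, Tyms, Dut and Tk1 supply nucleotides, and Uhrf1 maintains DNA methylation. In mitosis, Cdk1 with its cyclins (Ccna2, Ccnb1, Ccnb2) and subunit Cks1b, the kinases Aurka, Aurkb, Plk1, Bub1 and Bub1b, the motors Kif11, Kif20a and Cenpe, the spindle proteins Tpx2, Nusap1 and Hmmr, the kinetochore protein Cenpf, Birc5, the topoisomerase Top2a, and Ube2c and Cdc20, an enzyme and an activator of the anaphase promoting complex, divide the chromosomes, and Mki67 (Ki-67) coats them. In lymph nodes these programmes are strongest in germinal centre B cells, activated T cells and newly formed plasmablasts.

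The 4 libraries held 8297 to 9000 barcodes and 50749656 to 70418672 UMIs, and 33310 cells of 34323 barcodes were kept, with library medians of 5519 to 6728.5 UMIs per cell. The gates took 75.9 to 83.3% of the cells, and 115 of 34208 distinct barcodes occurred in more than 1 library. The Treg gate, where Foxp3 and Cd3e are present by rule, held Ctla4 in 71.2 to 80.2% and Ikzf2 in 73.3 to 78.6% of its cells. It overlapped the CD4 T gate by 61 to 101 cells and the CD8 T gate by 6 to 17 cells per library, so these cells were counted only as Treg where gates were compared. The Jchain-high gate held genes of plasma cells and of B cells side by side. Its plasma cell list of 8 genes, which includes the Jchain that the rule uses, summed to 13313 and 9133 CPM in the controls and 3611 and 4508 CPM in EV, against 405 to 485 CPM in the B gate. Among its cells with at least 5 mitosis UMIs, 66.7, 80.0, 94.7 and 98.5% (control 1, control 2, EV 1 and EV 2) held the B cell surface gene Ms4a1, and 0 to 10% held Prdm1, the plasma cell regulator. Siglech, which marks plasmacytoid dendritic cells, another Jchain-expressing type, was present at 58.0 CPM (counts per 1000000 UMIs) in control 1 and at 0 in the other 3 libraries. The list of 6 genes for that cell type summed to 1084 and 360 CPM in the controls and 271 and 304 CPM in EV. Not every gene of that list was detected in the gate. In the B gate the same list summed to 354 and 333 CPM in the controls and 313 and 316 CPM in EV. CPM of markers and marker lists are without further scaling. The gate is therefore called by its rule and not by a cell type.

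Over all cells, RNA of the mitosis genes was higher in both EV libraries. Their summed level was 126 and 102 CPM of all UMIs in the controls and 304 and 303 in the EV libraries, a 2.66-fold difference of the means. The replication genes stood at 346 and 346 in the controls and at 504 and 507 after EV, a 1.46-fold difference. Neither sum overlapped between groups, and with 2 libraries against 2 the exact permutation test cannot give a p below 0.33.

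Most of that difference came from very few cells. The Jchain-high gate held 10 and 18 control cells and 62 and 73 EV cells, which was 0.122, 0.226, 0.740 and 0.833% of the cells. Those cells supplied 7.61 and 5.71% of all mitosis UMIs in the controls and 43.3 and 41.2% in the EV libraries. Their part of the replication UMIs was 1.01 and 2.26% in the controls and 21.4 and 21.9% in the EV libraries. As CPM of all UMIs, the mitosis sum of the gate was 7.71 ± 2.65 (SD, n = 2) in the controls and 128 ± 4.76 (SD, n = 2) after EV, which was 63.5% of the difference over all cells. The B gate accounted for 12.3% (14.1, 15.2, 40.0 and 36.0 CPM), the CD8 T gate without Treg cells for 3.19% (22.8, 18.2, 27.7 and 25.3 CPM) and cells in no gate for 10.7% (23.5, 25.0, 54.1 and 34.9 CPM). The CD4 T gate without Treg cells had 20.4 and 19.2 CPM in the controls, 15.9 in EV 1 and 55.2 in EV 2, so its 8.31% rested on EV 2, and EV 1 lay below both controls. The Treg gate, with 1.94%, overlapped between groups at 35.6, 18.6, 34.6 and 27.0 CPM. For replication, the Jchain-high gate made up 65.0% of the difference and the B gate 44.1%, and the CD8 T gate was lower in both EV libraries, at 88.9, 91.7, 73.2 and 85.2 CPM. The replication sums of the CD4 T gate (61.6, 64.3, 41.0 and 71.1 CPM) and the Treg gate (24.8, 26.1, 28.2 and 19.6 CPM) overlapped between groups. B gate cells were also more numerous, with 3014 and 2493 in the controls against 4882 and 4306, and T gate cells fewer, so these sums mix how many cells a gate held with how much member RNA each cell held.

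**Figure D1:**
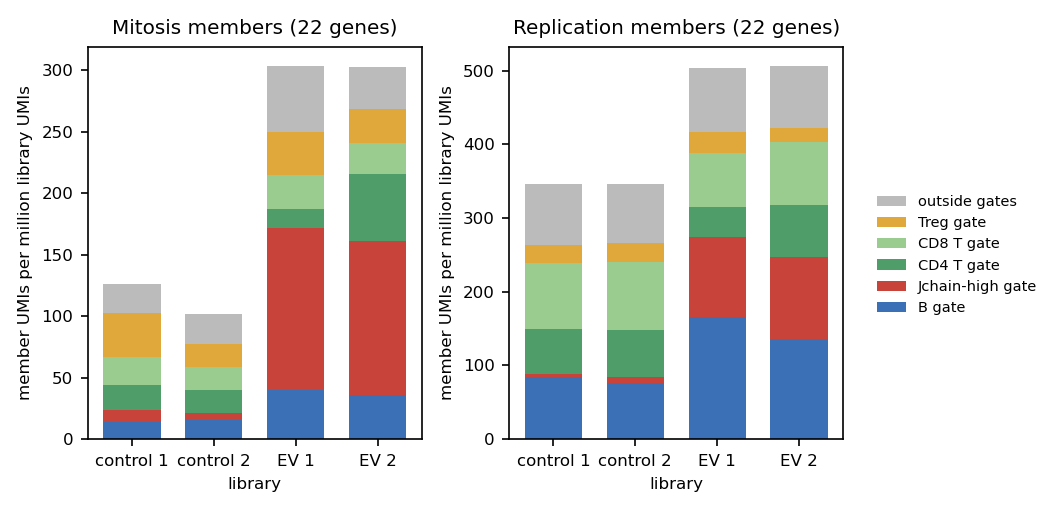
UMIs of the 22 mitosis members (left) and 22 replication members (right) as CPM of all UMIs of the library, stacked by gate; Treg cells are counted only in the Treg gate and each bar is 1 library. The Jchain-high part of the mitosis bar was 41.2 to 43.3% in the EV libraries and 5.71 to 7.61% in the controls.

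The mitosis sum depended on cells with many UMIs. The study's methods kept cells of at most 5000 genes and 20000 UMIs, upper limits that the main values here leave out. With cells limited in this way, the mitosis sum over all cells was 66.3 and 54.7 CPM in the controls and 60.8 and 56.2 after EV, so that the groups overlapped. The replication sum, at 312 and 303 CPM against 320 and 313, did not overlap, and the share of all cells with at least 5 mitosis UMIs was 0.504 and 0.760% in the controls and 1.02 and 0.973% in EV under the same limits. Of the cells with at least 5 mitosis UMIs, 20 of 61 and 28 of 88 exceeded those limits in the controls, and 95 of 178 and 117 of 200 in the EV libraries. When every cell of at least 2000 UMIs was instead thinned to 2000 UMIs, these cells counted alike whatever their size. The mitosis level was then 58.1 and 51.8 CPM in the controls and 105 and 110 after EV. Shallower cells, 156 and 261 in the controls and 217 and 158 in EV, were left out of all thinned values. Scrublet called 10 and 5.56% of the control and 0 and 1.37% of the EV Jchain-high cells doublets (2 cells in 1 droplet). Without the called cells of all gates the mitosis level was 133, 107, 316 and 319 CPM. These settings over all cells were chosen after seeing the data.

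The promoters of the 2 member groups carried different motifs. RefSeq windows of 300 bases (GRCm38.p6, the first one listed per gene, 250 bases before to 50 after the start) were present for 19 replication and 18 mitosis members. E2F-type letters (the letters TTCCCGC, the form with TTGGCGC, the form with TTCGCGC and the form with TTGCCGC, on either strand) were in 10 of 19 replication windows and 4 of 18 mitosis windows, and in 9.69% of all 27025 genes' windows. CHR-type letters (the letters TTTGAA and the form with TTCGAA, on either strand), the cell cycle homology region of late genes, were in 3 replication and 14 mitosis windows and in 19.4% of all windows. CCAAT boxes (either strand) were in 10 replication and 16 mitosis windows and in 37.9% overall. A match is a match of letters and not a measured binding site. The stretches below are the 250 bases before the start of 3 members that passed the EV test in a T cell gate, and of Mki67, the most used division marker. Capitals mark E2F-type letters in Mcm5, and CHR-type and CCAAT letters in the mitosis genes, where adjoining or overlapping matches run together.
Mcm5 (chr8:75109259-75109508, plus strand): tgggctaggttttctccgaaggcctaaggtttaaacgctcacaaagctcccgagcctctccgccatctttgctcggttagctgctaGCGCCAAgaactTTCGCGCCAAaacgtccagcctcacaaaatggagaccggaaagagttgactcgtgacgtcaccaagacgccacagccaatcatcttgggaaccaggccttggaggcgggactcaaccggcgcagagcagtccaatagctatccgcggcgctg
Hmmr (chr11:40733438-40733687, minus strand): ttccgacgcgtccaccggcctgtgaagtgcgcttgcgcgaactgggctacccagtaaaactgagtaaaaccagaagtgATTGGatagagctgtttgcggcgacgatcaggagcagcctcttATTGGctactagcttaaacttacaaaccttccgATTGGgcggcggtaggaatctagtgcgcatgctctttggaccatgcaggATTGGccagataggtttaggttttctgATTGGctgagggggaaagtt
Ube2c (chr2:164769679-164769928, plus strand): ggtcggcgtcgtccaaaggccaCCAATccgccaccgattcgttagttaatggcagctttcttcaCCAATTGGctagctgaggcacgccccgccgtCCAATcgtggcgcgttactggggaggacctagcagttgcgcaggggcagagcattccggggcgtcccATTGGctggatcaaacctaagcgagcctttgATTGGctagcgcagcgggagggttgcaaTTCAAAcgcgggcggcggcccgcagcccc
Mki67 (chr7:135716380-135716629, minus strand): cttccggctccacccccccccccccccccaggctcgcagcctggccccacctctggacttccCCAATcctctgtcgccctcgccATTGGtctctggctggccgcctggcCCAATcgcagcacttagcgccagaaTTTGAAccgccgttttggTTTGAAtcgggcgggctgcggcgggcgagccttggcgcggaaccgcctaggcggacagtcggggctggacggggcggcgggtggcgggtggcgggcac
Mcm5 held 3 E2F-type matches, 164, 152 and 149 bases before the start. Left in lower case were 2 CCAAT matches in Mcm5 and 1 E2F-type match each in Hmmr and Mki67, 216 and 67 bases before the start. Ube2c held 1 CHR-type match 29 bases before the start and 6 CCAAT matches, Mki67 held 2 CHR-type and 3 CCAAT matches, and Hmmr held 5 CCAAT matches with its CHR-type match beyond the stretch shown.

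In the Jchain-high gate most EV cells held RNA of the mitosis genes. At least 5 mitosis UMIs were found in 3 of 10 and 10 of 18 control cells and in 57 of 62 and 67 of 73 EV cells. Of all cells of the gate, mitosis positive or not, 3 in control 1 and 3 in control 2 lacked Cd79a. They were shallow, with median depths of 1447 and 830 UMIs. In EV 1, 2 cells lacked Cd79a, and in EV 2 100% held it. The shares were 30% (Wilson 95% interval 10.8 to 60.3) and 55.6% (33.7 to 75.4) in the controls, and 91.9% (82.5 to 96.5) and 91.8% (83.2 to 96.2) in the EV libraries, and the intervals cover counting error only. Shares with at least 5 replication UMIs had means of 45.6 ± 22% (SD, n = 2) in controls and 92.5 ± 0.859% (SD, n = 2) in EV. Neither share overlapped between groups, and the exact permutation p was 0.33 for each, the smallest possible. The EV cells were deeper, with gate medians of 26874 and 23174 UMIs against 8652 and 11224. In cells thinned to 2000 UMIs the share with at least 2 mitosis UMIs was 37.5 and 42.9% in the controls and 78.3 and 80.3% in EV. Thinning left 8 and 14 control cells and 60 and 71 EV cells of the gate, since shallower cells were dropped. Migratory dendritic cells (with Fscn1 and Ccr7, without Cd3e or Cd79a) were taken as the background on the assumption that they do not divide. Whether they divide was not tested. They reached 5 mitosis UMIs in 0 of 22, 0 of 55, 1 of 29 and 0 of 40 cells, with median depths of 5451 to 10515 UMIs. The counts of 0 allow shares of up to 13.6, 5.45 and 7.50%. When thinned, their share with at least 2 mitosis UMIs was 0% in the controls and 3.35 ± 0.917% (SD, n = 2) in EV. That EV mean exceeded those of the B (1.18%), CD4 T (1.66%) and CD8 T (1.29%) gates. It comes from at most 29 and 40 dendritic cells, so single cells weigh heavily in it and the order is uncertain. At least 1 Mki67 UMI was held by 0.909 ± 1.29% of these dendritic cells in the controls and 9.87 ± 10.4% in EV (SD, n = 2), which rests on equally few cells.

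The share of mitosis positive cells was high in the EV libraries at low and intermediate Jchain counts. Of cells with 5 to 19 Jchain UMIs, 2 of 6 and 9 of 14 were mitosis positive in the controls and 32 of 34 and 36 of 39 after EV. Of those with 20 to 99 UMIs, 0 of 1 and 0 of 2 were positive in the controls and 21 of 22 and 26 of 27 after EV. The control cells of this range were shallow, with median depths of 1137 and 1132 UMIs against 35507 and 37432 in EV, so their counts of 0 say little. With 100 or more, 1 of 3 and 1 of 2 were positive in the controls and 4 of 6 and 5 of 7 after EV.

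Within the Jchain-high gate, 21 replication and 6 mitosis members had both EV libraries above both controls. The plasma cell list was lower in both EV libraries of this gate, as given above, with 3 of its 8 genes below both controls, none above and none at 0 in every library. The part of these markers in the member values was not tested. Levels here and below are CPM of the gate's summed UMIs after TMM scaling, tested with edgeR and adjusted over all genes. Mcm4, a helicase subunit, was at 30.4 and 29.6 CPM in the controls (3 and 6 UMIs) and at 130 and 120 CPM in EV (245 and 242 UMIs). It rose by 2.06 on the log2 scale (SE 0.41, edgeR adjusted p = 0.047) and was the 1 member of 44 that passed, where 0.0989% of the 8085 genes tested passed as higher in EV. DESeq2 also called 1 member, among 51 genes called in either direction, but that was Pclaf and not Mcm4. In 27 of 44 members both EV libraries lay above both controls, against 25.5% of all genes, and these were 21 of the 22 replication but 6 of the 22 mitosis members. Median log2 differences were 0.98 for replication, 0.65 for mitosis and 0.04 for all genes.

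Several further replication members had no overlap between groups without passing the test. E2f1 had 10.1, 9.88, 48.8 and 61.0 CPM (log2 difference 2.45, SE 0.65, adjusted p = 0.14), although its control values rest on 1 and 2 UMIs. Uhrf1 stood at 40.6, 34.6, 104 and 113 CPM (1.56, SE 0.40, adjusted p = 0.12), and Mcm3 at 71.0, 124, 245 and 245 CPM (1.24, SE 0.30, adjusted p = 0.11). Pclaf, the most abundant replication member of the gate after EV, was at 466, 459, 839 and 800 CPM (0.83, SE 0.22, adjusted p = 0.14). Cdt1 was the 1 replication member whose groups overlapped, at 50.7, 29.6, 46.7 and 40.1 CPM.

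Most mitosis members overlapped between the groups in this gate, and the controls differed from each other. Control 1 had 484 mitosis UMIs in its 10 cells, a level of 4683 CPM before TMM scaling, while control 2 stood at 1570 and the EV libraries at 4753 and 4470. Mki67 was at 710 and 277 CPM in the controls and 590 and 710 in EV (log2 difference 0.48, SE 0.33, adjusted p = 0.65), and Top2a at 690, 202, 638 and 589 CPM (0.57, SE 0.37, adjusted p = 0.63). Without control 1 the median mitosis difference was 1.64, and without control 2 it was -0.08. Mcm4 no longer passed without control 2, EV 1 or EV 2 (adjusted p = 0.090, 0.092 and 0.056).

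**Figure D2:**
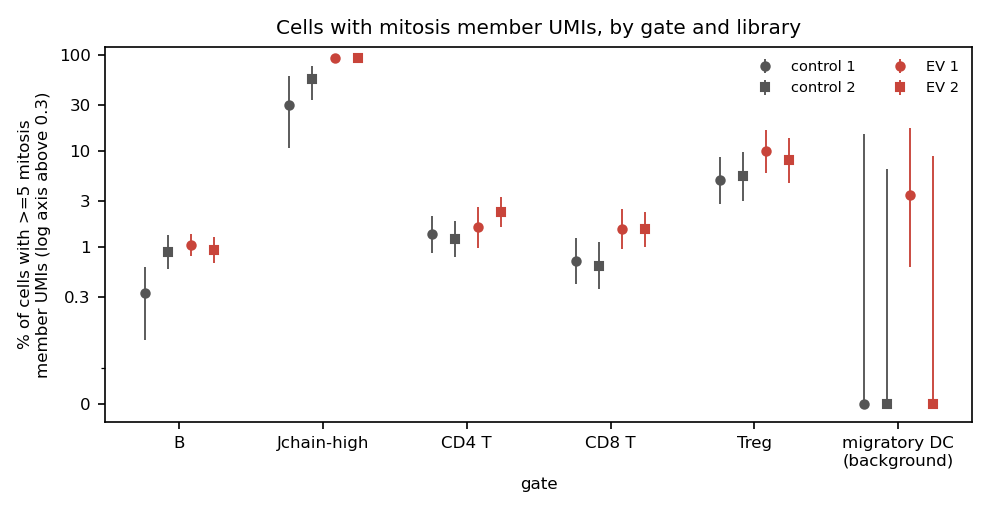
Percentage of cells with at least 5 UMIs of the 22 mitosis members, by gate and library, with Wilson 95% intervals (the axis is logarithmic above 0.3%). In the Jchain-high gate the controls were at 30 and 55.6% and the EV libraries at 91.9 and 91.8%, while B, CD4 T and CD8 T cells stayed between 0.332 and 2.31%.

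In the CD8 T gate 3 of 44 members passed the test, where 0.834% of 12477 genes passed as higher in EV. Mcm5 was at 12.3 and 11.4 CPM in the controls and 19.3 and 19.7 CPM in EV, a rise of 0.72 on the log2 scale (SE 0.12, adjusted p = 0.028). Mcm3, another helicase subunit, rose from 25.2 and 21.2 to 33.4 and 36.0 CPM (0.59, SE 0.11, adjusted p = 0.035). Ube2c, the ubiquitin-conjugating enzyme of the anaphase promoting complex, rose from 6.22 and 3.19 to 11.8 and 11.2 CPM (1.32, SE 0.26, adjusted p = 0.043). In each of these genes the EV libraries lay above the controls, as they did in 29 of 44 members against 24.3% of all genes. Lig1, the DNA ligase, missed the threshold at 10.9, 10.3, 16.0 and 16.6 CPM (0.62, SE 0.13, adjusted p = 0.052), and Mki67 had overlapping groups at 13.9, 5.98, 18.8 and 10.4 CPM (0.57, SE 0.35, adjusted p = 0.42).

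Medians were 0.41 for replication and 0.71 for mitosis members against -0.00 for all genes, and 43 of 44 members had a positive difference. The share of CD8 T cells with at least 5 mitosis UMIs was 0.709 and 0.638% in the controls and 1.55 and 1.52% in EV, from 12, 12, 16 and 21 cells. In thinned cells the shares were 0.709, 0.479, 1.36 and 1.23%, so the groups stayed apart (exact permutation p = 0.33). DESeq2 called the same 3 members, among 183 genes called in either direction. None of the 3 calls held without EV 2, and Mcm3 did not pass without control 2. Counts of passing members also depended on the library left out. With 1 library left out the log2 difference ran from 0.67 to 0.77 for Mcm5. It ran from 0.47 to 0.71 for Mcm3 and from 0.89 to 1.85 for Ube2c. The B cell list summed to 24.5 to 29.6 CPM in both groups with Cd79a at 0 by the gate.

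In the CD4 T gate 1 mitosis member passed the test. Hmmr, a spindle protein, rose from 7.60 and 4.99 to 12.6 and 14.1 CPM (1.10 on the log2 scale, SE 0.21, adjusted p = 0.041), the 1 of 44 members called where 1.01% of 12225 genes were called higher. DESeq2 called 4 members, Mki67, Nusap1, Top2a and Ube2c, and not Hmmr, among 185 genes called in either direction. Both EV libraries were above both controls in 29 of 44 members against 24.5% of all genes, namely in 17 mitosis and 12 replication members. All 22 mitosis members had a positive difference with a median of 0.94, the replication median was 0.29 and that of all genes was 0.00.

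The 2 EV libraries differed in how far they lay from the controls. Mki67 was at 22.3 and 26.8 CPM in the controls, 33.2 in EV 1 and 57.3 in EV 2 (0.89, SE 0.21, adjusted p = 0.080). Ube2c was at 11.3, 9.33, 16.2 and 37.9 CPM (1.43, SE 0.32, adjusted p = 0.066), and Rrm2, the small subunit of ribonucleotide reductase, at 7.60, 7.28, 11.7 and 19.3 CPM (1.07, SE 0.23, adjusted p = 0.058). EV 2 was the highest library in each. Hmmr did not pass without control 2, and counts of passing members depended on the library left out. With 1 library left out the mitosis median ran from 0.49 to 1.20 and the log2 difference of Hmmr from 0.81 to 1.42.

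The cells behind these sums were few and partly Foxp3 positive. Only 19, 20, 15 and 30 CD4 T cells had at least 5 mitosis UMIs, shares of 1.36, 1.22, 1.59 and 2.31%, and in thinned cells the shares overlapped at 1.22, 1.28, 1.17 and 2.16%. Foxp3 was found in 42.1, 45.0, 60.0 and 16.7% of those cells, against 4.97 to 6.67% of the others. The B cell list in this gate summed to 13.5 and 10.9 CPM in controls and to 20.9 and 17.5 CPM in EV, with 5 of 6 genes higher in both EV libraries and Cd79a at 0 by the gate, and the part of such RNA in the mitosis result was not tested.

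No member passed in the Treg gate, where no gene of 9623 did (0% called higher by edgeR, with 689 genes and 16 members at an unadjusted p below 0.05, and by DESeq2 16 genes and 0 members). Its mitosis level was 965, 628, 1502 and 1160 CPM before TMM scaling. Mki67 was at 116 and 108 CPM in the controls and at 218 and 178 CPM in EV (0.82, SE 0.17, adjusted p = 0.26). Kif11, the motor that separates spindle poles, was at 33.5, 36.1, 69.2 and 64.1 CPM (0.94, SE 0.20, adjusted p = 0.29), and Rrm2 at 21.6, 24.1, 62.1 and 42.1 CPM (1.19, SE 0.26, adjusted p = 0.32). In these 3 genes, and in 22 of 44 members against 18.4% of all genes, both EV libraries lay above both controls.

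All 44 Treg differences were positive, with medians of 0.37 for replication, 0.73 for mitosis and 0.01 for all genes. At least 5 mitosis UMIs were present in 11 of 222 and 10 of 184 control cells and in 13 of 131 and 12 of 150 EV cells, which is 4.95, 5.43, 9.92 and 8%. With 1 library left out the mitosis median ran from 0.35 to 1.00 and the replication median from 0.12 to 0.63. Whether members passed depended on the library left out. The Treg gate did not bar B cell RNA. Its B cell list summed to 522 and 143 CPM in the controls and to 567 and 849 CPM in EV, with 5 of 6 genes higher in both EV libraries and none at 0, and 3.26 to 7.66% of the gate's cells were called doublets. Beyond leaving out the called doublets, which was among the settings tried, the part of this B cell RNA in the Treg values was not tested.

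In the B gate no member passed, where 1.71% of 13365 genes passed as higher in EV. DESeq2 called 2 members, Mki67 and Birc5, among 496 genes called in either direction. An unadjusted edgeR p below 0.05 was found for 15 members and for 2604 of the 13365 genes. Mki67 was at 1.79 and 2.98 CPM in the controls and 5.13 and 6.59 CPM in EV (1.30, SE 0.28, adjusted p = 0.052). Ube2c was at 2.87, 3.94, 7.26 and 6.41 CPM (1.01, SE 0.22, adjusted p = 0.052), and Birc5, the survivin subunit of the chromosomal passenger complex, at 1.72, 3.27, 5.16 and 6.82 CPM (1.26, SE 0.30, adjusted p = 0.070). The groups did not overlap in these genes, nor in 16 mitosis and 12 replication members in all with EV higher (28 of 44, against 26.3% of all genes). Pcna was the 1 member with both EV libraries below both controls, at 53.0, 50.1, 48.2 and 40.8 CPM (-0.21, SE 0.10, adjusted p = 0.29).

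The B gate medians were 0.21 for replication, 0.60 for mitosis and 0.00 for all genes. Cells with at least 5 mitosis UMIs numbered 10 of 3014, 22 of 2493, 51 of 4882 and 40 of 4306, or 0.332, 0.882, 1.04 and 0.929%. The limits that the background cells allow lie above these shares and above those of the CD4 T and CD8 T gates. The mitosis sum of the B gate was 51.8, 65.9, 84.8 and 92.8 CPM before TMM scaling, and that of the migratory dendritic cells 27.2, 38.9, 91.0 and 30.8 CPM, so EV 1 of the B gate did not exceed its background. The count of called members changed with the line between the B and Jchain-high gates. With a limit of 20 Jchain UMIs 8 members were called in each gate. The share of all genes called at that limit is not given here, so these counts do not set the members apart from other genes. At that limit the Jchain-high gate held few control cells, as the ranges of Jchain counts above show. With 1 library left out the B gate mitosis median ran from 0.46 to 0.75 and its replication median from 0.19 to 0.25. Whether members passed depended on the library left out. In this gate the T cell list summed to 71.7 and 53.6 CPM in controls and 29.5 and 28.9 CPM in EV (4 of 6 genes lower, Cd3e at 0 by the gate), and the macrophage list to 47.2 and 42.9 against 149 and 80.1 CPM (2 of 6 genes higher, none at 0), and their part was not tested.

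**Figure D3:**
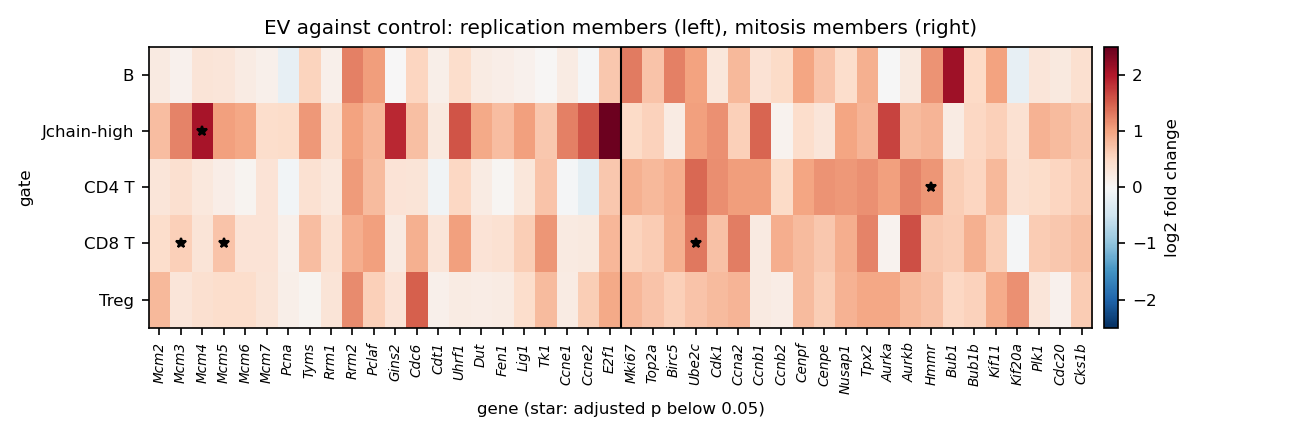
Log2 fold change of EV against control for each of the 44 members (columns) in the 5 gates (rows), with stars at an adjusted p below 0.05. There are 5 stars (Mcm4 in Jchain-high, Hmmr in CD4 T, and Mcm3, Mcm5 and Ube2c in CD8 T), and 40 of 44 members in B and CD4 T, 43 in CD8 T and 44 in Jchain-high and Treg were above 0.

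In the 4 pairs of gates tested, for no member did the EV difference pass the test as larger in one gate than in the other. Without the filter on low counts 4, 5 and 2 members passed in 3 of these pairs. The share of all genes passing without the filter is not given here, and the shares below are with it. A fit over all gates and libraries, with library as a block, tested the difference of the EV effects. Between CD8 T and CD4 T, 0 of 44 members passed (0.0556% of 14400 genes did, and 2 members had an unadjusted p below 0.05), and the median difference was 0.20 for replication and -0.19 for mitosis. Between B and CD4 T 0 passed (0.701% of genes, 3 members unadjusted), with medians of -0.06 and -0.53. Between Treg and CD4 T 0 passed (0.0833% of genes, 1 member unadjusted), with medians of 0.12 and -0.59. Between Jchain-high and B 0 passed (0.611% of genes), with medians of 0.79 and 0.07 against 0.21 for all genes and a smallest adjusted p of 0.072. An unadjusted p below 0.05 was found for 13 members, all larger in Jchain-high and 12 of them replication genes. Of the 14400 genes 1395 had such a p, 844 of them larger in Jchain-high. In the other 3 pairs, in the order given, 572, 1086 and 873 of the 14400 genes did. A p above the threshold does not show that the effects were alike.

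The level of the members, taken over both groups, differed between lineages. Against the B gate, 43 of 44 members were higher in Jchain-high cells, where 25.8% of genes were higher and 28.3% lower, with a median log2 difference of 3.41 for replication and 5.75 for mitosis. Hmmr and Mki67 differed most, by 7.15 and 7.05, and Cdt1, at -0.09, was the 1 member that did not pass. The Treg gate exceeded the CD4 T gate in 40 members, where 14.6% of genes were higher and 15.3% lower. The medians were 1.07 and 2.35, with Cenpf at 2.89, Ccnb1 at 2.73 and Mki67 at 2.61, and E2f1, Ccne2, Mcm2 and Cdt1 did not pass.

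B cells lay below CD4 T cells in 31 members and above in 2, where 37.7% of genes were lower and 24.6% higher. Hmmr was lower by a log2 difference of -3.02 and Mki67 by -2.56, while the licensing factor Cdt1 (1.24) and the nuclease Fen1 (0.24) were higher in B cells. CD8 T cells lay below CD4 T cells in 7 members, among them Hmmr (-1.05), Rrm2 (-0.91) and Mki67 (-0.98), and above in 3, Ccne1 (1.16), Cdt1 (0.65) and Mcm6 (0.41), where 11.4% of genes were lower and 11.3% higher. The medians against CD4 T cells were -0.72 for mitosis and -0.01 for replication in CD8 T cells, and -1.37 and -0.50 in B cells. In thinned cells the calls, in either direction, numbered 19 for Treg against CD4 T, 19 for B against CD4 T and 3 for CD8 T against CD4 T. The shares of all genes called in thinned cells are not given here, and those above are for all cells kept.

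The direction of the mitosis medians in the B and T cell gates depended on cells with many UMIs. With at most 5000 genes and 20000 UMIs the mitosis median was -0.22 in B, -1.18 in CD4 T, -0.11 in CD8 T and -1.18 in Treg, and 0.92 in Jchain-high. Under those limits 0.868 and 0.493% of CD4 T cells were mitosis positive in the controls and 0.325 and 0.710% in EV, and the log2 difference of Hmmr was -2.97 (adjusted p = 0.061). In the Jchain-high gate 12.5 and 53.3% of control cells and 80.0 and 81.5% of EV cells were positive. Among mitosis positive CD4 T cells 36.8, 60.0, 80.0 and 70.0% exceeded these limits. Thinning to 2000 UMIs, which keeps the large cells, left the mitosis medians positive in all 5 gates.

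**Figure D4:**
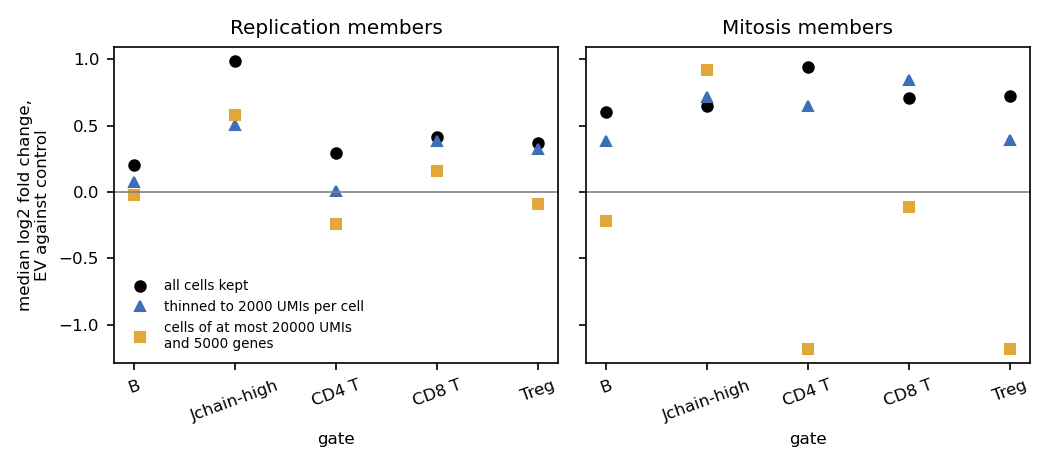
Median log2 fold change of EV against control over the replication members (left) and mitosis members (right) in each gate, with all cells kept (circles), with cells thinned to 2000 UMIs (triangles) and with cells limited to 20000 UMIs and 5000 genes (squares). The mitosis squares lie at -1.18 in CD4 T and Treg and at 0.92 in Jchain-high.

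Other cell cycle genes were taken from lists of the pathway. Of 61 further mitosis genes, 1 of 57 tested passed in the B gate, 3 of 59 in CD4 T and 2 of 56 in CD8 T, beside 1.71, 1.01 and 0.834% of all genes called higher there, so that the B gate count was at the background. Cdca8 (borealin, of the chromosomal passenger complex) rose in both the B gate (2.51, 3.87, 6.69 and 7.12 CPM, 1.11 on the log2 scale, adjusted p = 0.046) and the CD4 T gate (7.71, 8.02, 15.1 and 21.2 CPM, 1.21, adjusted p = 0.017). Cks2 (0.74) and Ube2s (0.59) also rose in CD4 T cells, and Stmn1 (1.12) and the condensin subunit Smc2 (0.52) in CD8 T cells. Of 44 further replication genes, Cdc45, the helicase cofactor of the MCM ring, rose in CD8 T cells from 1.33 and 0.987 to 4.55 and 3.66 CPM (1.82, SE 0.32, adjusted p = 0.032). By edgeR no gene of these 2 lists was called lower in a gate. In the B gate 5 of 43 replication and 8 of 57 mitosis genes had both EV libraries below both controls, against 3521 of all 13365 genes. In 17 and 31 genes of these lists both EV libraries lay above both controls, against 26.3% of all genes. DESeq2 called Cdca8 and Stmn1 in the B gate and Cdca8, Cks2 and Ube2s in CD4 T, but none of these genes in CD8 T. Of the 16 G1 cyclins, kinases and E2F factors and the 18 cell cycle brakes, 0 passed by edgeR in the 5 gates, with 0 to 6 genes per list and gate at an unadjusted p below 0.05, and DESeq2 called 1, the cyclin Ccnd3 in Jchain-high cells (152, 123, 314 and 361 CPM, log2 difference 1.35, adjusted p = 0.0097).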

How the data were processed

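Single-cell RNA of 2 control and 2 EV libraries was analysed from the deposited count matrices (filtered barcodes, raw UMI counts), which the authors made with Cell Ranger 7.1.0 on mm10, according to the submitters' processing notes. The counts were not normalized. Cells with at least 200 genes and under 10% mitochondrial UMIs were kept, and raw counts were summed per library and gate. The sums were tested with edgeR 4.0.16 in R 4.3.3 (quasi-likelihood test, TMM scaling, filterByExpr, two-sided, Benjamini-Hochberg adjustment over all genes tested, threshold 0.05). The difference between gates came from 1 fit over 5 gates and 4 libraries with library as a block. Shares of cells were compared by an exact permutation test over libraries. The p-values measure the spread between these libraries, of which there were 2 per group.

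DESeq2 1.42.0, no filter, other size factors, a replicate block, thinning to 2000 UMIs, upper limits of 5000 genes and 20000 UMIs, a mitochondrial limit of 5%, other gate limits, doublets left out (Scrublet in scanpy 1.11.5, expected rate 6%) and each library left out were tried. The fits were tested on simulated data. All 44 members could be named, and of the other lists the genes called in a gate, at most 5 per list and gate; Ccnd3 and Siglech are named beside a count. The members and lists were chosen with earlier results of these data known.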

Additional observations from a re-analysis of the deposited data

Results flagged for a closer look

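Cells that fell in none of the 5 gates also held more RNA of the mitosis members in the EV libraries than in the controls. Their level was 276 CPM (UMIs per 1000000 UMIs of these cells) in EV 1 and 161 CPM in EV 2, against 89.6 and 103 CPM in the controls. These cells enter no gate test, and 11.3, 11.1, 11.2 and 16.5% of them (control 1, control 2, EV 1 and EV 2) were called doublets. The part of doublets in these values was not tested.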

How the results depend on the processing

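Counts of called members depended on the setting. Apart from DESeq2, the shares of all genes called in these settings are not given here. The counts therefore show how the calls moved and do not set the members apart from other genes. DESeq2 gave 2 in the B gate and 4 in CD4 T, among 496 and 185 genes called. Without the filter on low counts there were 12, 12, 20, 21 and 8 in B, Jchain-high, CD4 T, CD8 T and Treg, and for the difference of EV effects 4 (B against CD4 T), 5 (Jchain-high against B) and 2 (Treg against CD4 T), with 24 for the level in CD8 T against CD4 T. Thinning gave 0 in Jchain-high, CD4 T and CD8 T, and 3, 19 and 19 for the levels of CD8 T, B and Treg against CD4 T. Upper limits gave 0 in Jchain-high, 0 in CD4 T and 1, lower in EV, in CD8 T. A mitochondrial limit of 5% gave 0 in Jchain-high and 3 in CD4 T, leaving out immunoglobulin genes 0 in Jchain-high, and allowing 1 UMI of an excluded marker 2, 0, 19 and 6 in B, Jchain-high, CD4 T and CD8 T. A Jchain limit of 20 gave 8 in B and 8 in Jchain-high, the latter from few control cells. Leaving out 1 library gave 0 to 7 in B, 0 to 17 in Jchain-high, 0 to 28 in CD4 T, 0 to 22 in CD8 T and 0 to 14 in Treg, 0 to 3 and 0 to 2 (both largest without EV 1) for the EV effects of B and Treg against CD4 T, and 4 (without EV 2) to 18 (without EV 1) for the level of CD8 T against CD4 T; a lone library is assumed to vary like the others. The cause of these changes was not tested.

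With the replicate number as a block, 8, 0, 19, 21 and 0 members were called in B, Jchain-high, CD4 T, CD8 T and Treg. The shares of all genes called with this block are likewise not given. The labels link same-numbered libraries by the number alone, and their deviations correlated by 0.013, 0.0014, -0.040, 0.062 and -0.15. With 2 libraries per group these correlations cannot tell whether a preparation was shared. The crossed pairing, chosen after seeing the data, gave 0 members in Treg.

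Under upper limits the medians turned to -0.019 (replication) and -0.22 (mitosis) in B, -0.24 and -1.18 in CD4 T, -0.092 and -1.18 in Treg and, for mitosis, -0.11 in CD8 T. In the same setting Mki67 was at -0.62 in B, -0.68 in Jchain-high, -1.59 in CD4 T, -1.37 in CD8 T and -1.53 in Treg, Pclaf at -0.16 in B, -1.61 in CD4 T and -0.83 in Treg, Ube2c at -0.070 and Uhrf1 at -0.33 (-0.43 thinned) in B, and Hmmr at -2.97 and Cdca8 at -0.23 in CD4 T. With 1 library left out, the Jchain-high mitosis median ran from -0.076 to 1.64, Mki67 from -0.055 to 1.27 and Top2a from -0.10 to 1.63, each lowest without control 2 and highest without control 1.

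Main EV over control ratios of mitosis positive cells were 1.625 (B), 2.15 (Jchain-high), 1.51 (CD4 T), 2.28 (CD8 T) and 1.725 (Treg). Under upper limits they were 1.08 (B), 0.761 (CD4 T), 1.11 (CD8 T) and 0.992 (Treg). In CD8 T the ratio was 1.79 at 10 UMIs, and in Jchain-high it was 3.61 at a Jchain limit of 20. Main replication ratios were 1.80 (B), 2.03 (Jchain-high), 1.58 (CD4 T), 1.73 (CD8 T) and 1.185 (Treg, with overlapping groups). When thinned they were 0.955 (B), 0.982 (CD4 T) and 1.23 (CD8 T). At 10 UMIs they were 2.47 (CD8 T) and 1.99 (Treg). The replication ratio was 0.958 in Treg under upper limits and 3.75 in Jchain-high at a Jchain limit of 20. The ratios at a Jchain limit of 20 rest on few control cells, 1 and 2 with 20 to 99 and 3 and 2 with 100 or more Jchain UMIs. Over all cells the mitosis ratio was 0.967 under upper limits and 1.96 when thinned, and the replication ratio 1.03, 1.17 and, without doublets, 1.47.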
